A study of Mus musculus with 7 samples.

Results

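The retinoid genes examined in mouse kidney were the 4 genes of the Aldh1a family of aldehyde dehydrogenases (Aldh1a1, Aldh1a2, Aldh1a3 and Aldh1a7), the retinol carrier gene Rbp4, and the retinoic acid receptor genes Rara and Rarb. They were found by symbol: Aldh1a1 was chosen by its measured level, which was higher in the diabetic libraries than in control replicates 8 and 9, and the other 6 were taken by name as its family and as retinoid proteins. All 7 were present among the 17537 genes listed. Because the contrast of diabetic mice with controls chose Aldh1a1, its difference from controls is described below without a test, whereas the comparison between the 2 diabetic groups did not enter the choice.

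RNA was sequenced from whole renal tissue of wild-type C57BL/6 mice, in 7 libraries that the labels describe as separate samples. The C group (replicates 2, 8 and 9) was nondiabetic and received the sodium citrate solvent. The DM-22 group (replicates 1 and 2) received streptozotocin, a toxin of insulin-producing beta cells, at 60 mg/kg on 5 consecutive days and stayed hyperglycemic for 22 weeks. The DM+SGLT2i group (replicates 1 and 2) received the same streptozotocin course and, after 16 weeks of hyperglycemia, dapagliflozin (25 mg/kg, drinking water) during the last 6 weeks. Dapagliflozin blocks the glucose transporter SGLT2 of the proximal tubule. The labels state male mice of 8 to 10 weeks, while the methods of the study also mention female mice. By those methods streptozotocin was given at 8 weeks of age, controls were age-matched, and tissue was taken after 22 weeks of hyperglycemia. The labelled age is therefore not the age at which the kidneys were sampled. No source used here says whether the libraries come from 1 kidney or both, so p-values measure the spread between these samples. In such bulk tissue, fewer cells of a type and less RNA per cell cannot be told apart.

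Vitamin A circulates as retinol bound to the protein encoded by Rbp4. The part of it that passes the glomerular filter is taken back up by the proximal tubule. Inside cells, retinol is oxidized to retinal by alcohol and retinol dehydrogenases, and retinal is oxidized irreversibly to retinoic acid by the enzymes encoded by Aldh1a1, Aldh1a2 and Aldh1a3. Aldh1a7 is a rodent gene closely related to Aldh1a1 and belongs to the same family. Retinoic acid binds nuclear receptors, among them those encoded by Rara and Rarb, which pair with retinoid X receptors and switch target genes; Rarb is itself a classical target. Retinoids are best known in the kidney for guiding branching of the ureteric bud during development.

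Aldh1a1 and Aldh1a7 are neighbours on mouse chromosome 19, and their promoters are shown because the 2 genes varied together in these libraries. On GRCm38, Aldh1a1 (ENSMUSG00000053279) spans positions 20492715 to 20643465 on the plus strand, and Aldh1a7 (ENSMUSG00000024747) spans 20692953 to 20727562 on the minus strand. Aldh1a1 has RefSeq starts at positions 20492583 and 20601968, and the latter is used here. The 250 bases before that start and before the RefSeq start of Aldh1a7 (GRCm38.p6, chr19:20601718-20601967 on the plus strand and chr19:20727557-20727806 on the minus strand) share a run of 65 identical bases, given in capitals, which ends 30 bases before the start in both genes. Both promoters, written 5′ to 3′ on the gene's own strand, are as follows.
Aldh1a1: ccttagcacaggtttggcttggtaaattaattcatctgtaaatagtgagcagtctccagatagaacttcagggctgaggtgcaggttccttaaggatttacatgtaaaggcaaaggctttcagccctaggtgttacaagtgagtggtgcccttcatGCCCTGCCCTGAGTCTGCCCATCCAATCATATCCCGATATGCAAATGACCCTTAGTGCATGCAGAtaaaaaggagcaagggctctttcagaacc
Aldh1a7: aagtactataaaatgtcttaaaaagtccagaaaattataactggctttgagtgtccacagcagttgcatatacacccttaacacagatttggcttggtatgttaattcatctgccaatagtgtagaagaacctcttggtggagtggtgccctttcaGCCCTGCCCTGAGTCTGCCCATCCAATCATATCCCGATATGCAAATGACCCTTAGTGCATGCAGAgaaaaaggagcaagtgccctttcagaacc
Over 235 aligned bases, 73.6% were identical. The shared run holds the letters CCAAT and the octamer ATGCAAAT. The window of the other Aldh1a1 start, at 20492583, holds neither. Searched on both strands, ATGCAAAT occurred in 526 of 32817 RefSeq promoter windows (1.60%) and in windows of 3 members, Aldh1a1, Aldh1a2 and Aldh1a7. CCAAT occurred in 33.8% of all windows and in windows of 5 members. Of the 7 members, 6 had a promoter entry, with 11 windows in all.

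The coding sequences of Aldh1a1 and Aldh1a7 were also close, with 91.6% identical bases over 1503. Of all runs of 50 bases in the Aldh1a1 transcript, 151 (7.53%) occurred unchanged in the Aldh1a7 transcript. The other pairs of Aldh1a genes had 67.4% to 68.9% identical coding bases and 0 shared runs of 50 bases. How reads that match both genes were counted is not given in the sources used here, so the split of reads between Aldh1a1 and Aldh1a7 is uncertain.

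The promoter of Rarb is shown because it carries a direct repeat of the kind that retinoic acid receptors are known to bind. Rarb (ENSMUSG00000017491) spans positions 16430839 to 16819156 on the minus strand of chromosome 14. The 250 bases before its RefSeq start (GRCm38.p6, chr14:16575477-16575726, minus strand) hold 2 copies of GTTCAC in the same orientation with 5 bases between them, in capitals, from 52 to 36 bases before the start.
Rarb: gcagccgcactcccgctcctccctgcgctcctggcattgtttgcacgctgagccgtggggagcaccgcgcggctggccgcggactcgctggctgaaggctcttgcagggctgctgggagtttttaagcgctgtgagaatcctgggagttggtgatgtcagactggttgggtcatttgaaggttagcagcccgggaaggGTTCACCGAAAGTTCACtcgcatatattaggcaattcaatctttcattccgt
This pattern, GTTCAC repeated after any 5 bases and searched on both strands, occurred in 2 of 32817 windows (0.00609%), of which the Rarb window is 1, and in no other window of a member. The related pattern, AGGTCA repeated after any 5 bases, occurred in 3 windows (0.00914%), none of them a member's.

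The libraries held between 46456125 and 56541594 reads on listed genes, so that 1 read corresponded to 0.0180 to 0.0231 CPM (a gene's reads relative to all reads of its library, after normalization). Control replicate 2 stood apart from the other controls: over all genes tested its log2 levels correlated at r = 0.939 with control replicate 8 and 0.935 with control replicate 9, compared with 0.991 between those 2 controls and 0.985 between control replicate 2 and DM+SGLT2i replicate 2. Its summed markers of proximal tubule were the lowest of all libraries (12842 CPM, against 23225 to 45149 in the other 6). Most of the gap to DM-22 replicate 1 lay in the single gene Kap, at 2090 CPM in control replicate 2 and 12472 CPM in DM-22 replicate 1. Of the list, only Aqp1 was higher in control replicate 2 (1667 CPM) than in control replicates 8 and 9 (1017 and 1031 CPM). The summed markers of proximal tubule injury were highest in control replicate 2 (481 CPM, against 138 to 142 in control replicates 8 and 9 and 328 to 340 in the diabetic libraries). Members and pathway lists are therefore compared with controls both with and without control replicate 2. The 2 DM-22 libraries also differed from each other (r = 0.957). In DM-22 replicates 1 and 2, thick ascending limb markers summed to 13332 and 3356 CPM. Papilla and urothelium markers summed to 487 and 79.9 CPM, distal convoluted tubule markers to 656 and 2338 CPM, and endothelial markers to 363 and 333 CPM. The part of this tissue content in the DM-22 means was not tested. Genes were tested with limma on log2(CPM + 0.5), with p-values adjusted by the Benjamini-Hochberg method over the 13976 genes that reached 1 CPM in at least 2 libraries. All 7 members passed this filter.

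**Figure D1:**
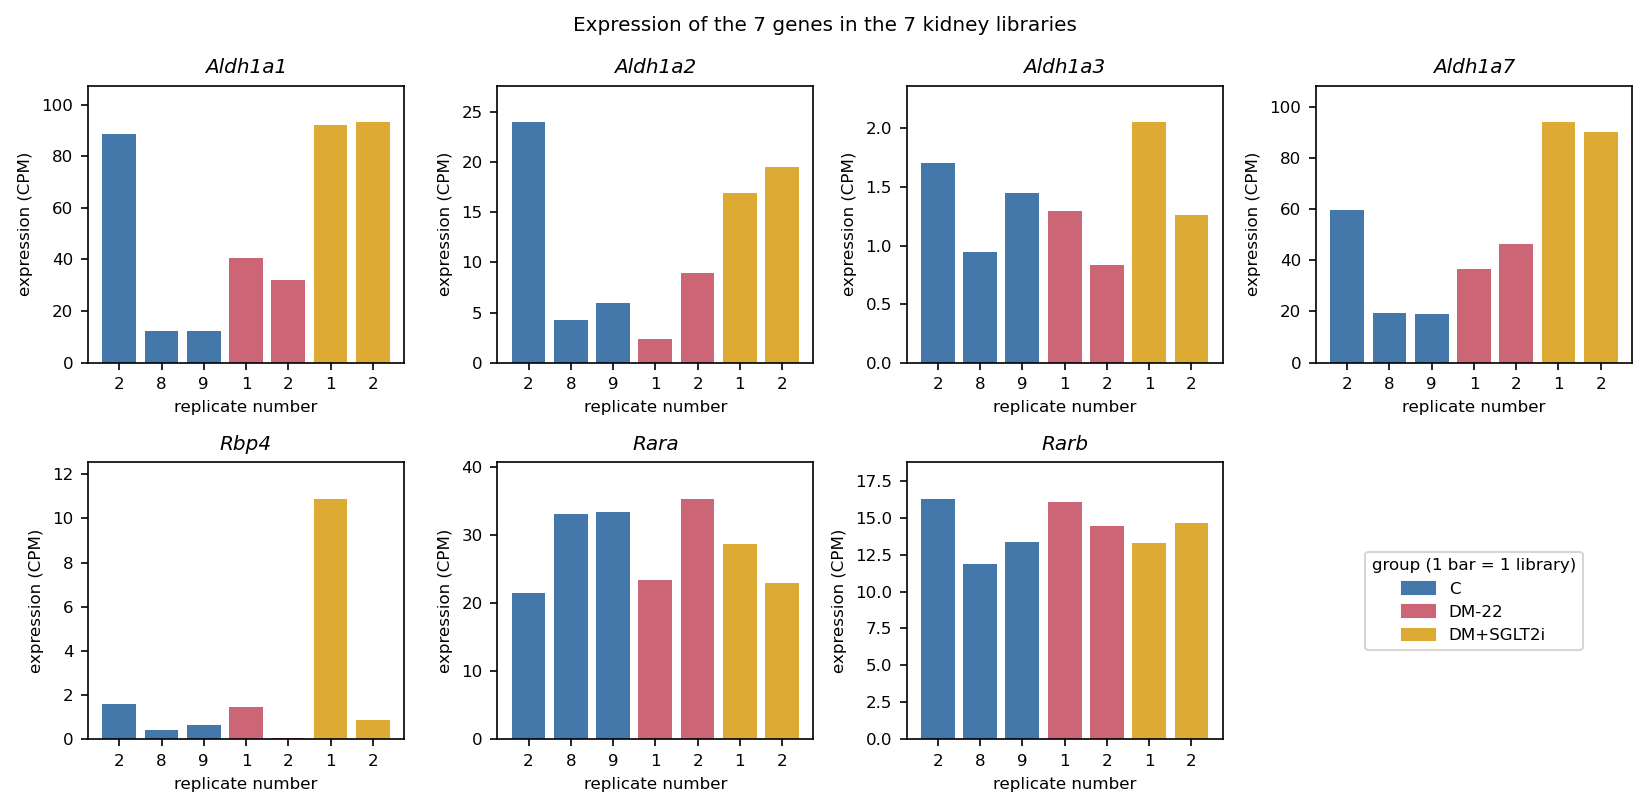
Expression of each of the 7 genes in CPM (linear axis from 0), with 1 bar for each of the 7 libraries, colored by group. Aldh1a1, Aldh1a7 and Aldh1a2 were high in control replicate 2 and in both DM+SGLT2i libraries; Rbp4 was high in DM+SGLT2i replicate 1, and Rarb lay between 11.9 and 16.3 CPM in every library.

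Aldh1a1, which encodes the cytosolic retinal dehydrogenase of adult epithelia, was measured at 88.5, 12.3 and 12.4 CPM in control replicates 2, 8 and 9. It was at 40.4 and 32.0 CPM in DM-22 and at 92.2 and 93.2 CPM in DM+SGLT2i. Control replicates 8 and 9 were thus the lowest libraries, the DM-22 libraries were intermediate, and control replicate 2 lay just below the DM+SGLT2i libraries. The mean was 36.2 ± 5.94 CPM (SD, n = 2) in DM-22 and 92.7 ± 0.737 CPM (SD, n = 2) in DM+SGLT2i. In the controls it was 37.7 ± 43.9 CPM (SD, n = 3), a spread larger than the mean that came from replicate 2, and 12.3 ± 0.0245 CPM (SD, n = 2) without it. On the log2(CPM + 0.5) scale the difference from all controls was 0.57 in DM-22 and 1.93 in DM+SGLT2i, and without control replicate 2 these differences were 1.51 and 2.86. These 4 values describe the contrast that chose the gene. Aldh1a1 is also on the list of changed genes that the study drew from these mice, so its direction against controls is not independent evidence.

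Between the diabetic groups, which the choice of Aldh1a1 did not use, the 2 DM+SGLT2i libraries lay above both DM-22 libraries, at 2.56 times the DM-22 mean. With all 7 libraries in the fit the log2 difference was 1.35 (standard error 0.90, limma adjusted p = 0.881), and the 95% interval ran from -0.80 to 3.51. With control replicate 2 left out, the difference was the same and its standard error was 0.14, because the spread is estimated over all 3 groups, and the adjusted p was 0.267. The difference did not pass the adjusted threshold of 0.05 in either fit.

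Aldh1a7, whose known substrates are small aldehydes rather than retinal, showed the same order of group means among control replicates 8 and 9, DM-22 and DM+SGLT2i as Aldh1a1. It was measured at 59.7, 19.4 and 19.2 CPM in control replicates 2, 8 and 9, at 36.4 and 46.2 CPM in DM-22, and at 94.1 and 90.4 CPM in DM+SGLT2i. Both DM+SGLT2i libraries exceeded every other library. Of all genes tested, both exceeded the 3 controls in 5.67% and both DM-22 libraries in 21.4%. The share that exceeded all of these at once was not counted. All 4 diabetic libraries exceeded control replicates 8 and 9. Of the 6 members other than Aldh1a1, Aldh1a7 was the 1 with that property, which 15.1% of all genes tested shared. The log2 difference between DM+SGLT2i and C was 1.69 (standard error 0.49, limma adjusted p = 0.9997). At an unadjusted p under 0.05, Aldh1a7 was the 1 of the 6 members tested that was higher in this comparison, and 0 were lower, compared with 0.665% and 0.415% of all genes tested. When control replicate 2 was left out, the difference was 2.23 (standard error 0.14, limma adjusted p = 0.0264), which passed the threshold; 0.107% of all genes tested were higher and 0.0143% lower at that threshold in this fit, and with all 7 libraries 0% were. When DM+SGLT2i replicate 1 was left out as well, the difference was 2.20 and the adjusted p 0.265. Fits without control replicate 2 keep only control replicates 8 and 9, the controls that the choice of Aldh1a1 used. Aldh1a7 varied with Aldh1a1 (r = 0.962), and the split of reads between these genes is uncertain. The differences of Aldh1a7 from those controls are therefore not independent of that choice. Aldh1a7 is also on the study's own list of changed genes.

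In DM-22 compared with C, the log2 difference of Aldh1a7 was 0.53 (standard error 0.49, limma adjusted p = 0.816), and without control replicate 2 it was 1.07 (standard error 0.14, limma adjusted p = 0.0826), in a fit where 0.00716% of all genes tested passed in either direction. The difference of the DM+SGLT2i group from DM-22 was 1.16 (standard error 0.53, limma adjusted p = 0.881), and without control replicate 2 the standard error was 0.14 and the adjusted p 0.360. None of these passed the adjusted threshold.

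Markers of adrenal cortex, tissue that lies against the kidney, were low in all libraries. Their sum was between 1.85 and 3.93 CPM in the 7 libraries, highest in control replicates 8 and 9, and 4 of the 8 markers (Cyp11b1, Cyp11b2, Cyp21a1 and Nr5a1) were not among the listed genes. Summed markers of proximal tubule injury did separate control replicates 8 and 9 from the other 5 libraries, as Aldh1a1 and Aldh1a7 did. In DM-22 replicate 2 each marker exceeded those 2 controls, but by unequal amounts. Cdkn1a made up 123 of the 328 CPM there, against 4.63 and 5.36 CPM in control replicates 8 and 9. Havcr1 was at 2.17 CPM, against 1.98 and 1.84 CPM, and Vcam1 at 12.9 CPM, against 9.56 and 12.3 CPM. The nuclear-retained RNAs Malat1, Neat1, Meg3 and Kcnq1ot1 summed to 460 and 630 CPM in control replicates 8 and 9, against 59.2 to 211 CPM elsewhere. The part of adrenal tissue, tubule injury or nuclear RNA in the levels of Aldh1a1 and Aldh1a7 was not tested.

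Aldh1a2 (ENSMUSG00000013584, chromosome 9, positions 71215789 to 71296243, plus strand) encodes the retinal dehydrogenase that supplies most retinoic acid in the embryo, where it marks stroma and mesothelium. It was measured at 24.0, 4.23 and 5.96 CPM in control replicates 2, 8 and 9. The DM-22 libraries were at 2.39 and 8.90 CPM and the DM+SGLT2i libraries at 16.9 and 19.5 CPM. DM+SGLT2i lay above DM-22 without overlap, while control replicate 2 was the highest library of all. The log2 difference between DM+SGLT2i and DM-22 was 1.84 (standard error 0.85, limma adjusted p = 0.881), and without control replicate 2 the adjusted p was 0.463. Against C the difference was 1.04 (standard error 0.78, limma adjusted p = 0.9997) in DM+SGLT2i and 1.76 (adjusted p = 0.191) without control replicate 2. In DM-22 it was -0.80 (standard error 0.78, limma adjusted p = 0.820) and, without control replicate 2, -0.08.

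Markers of fibroblasts and mural cells had their highest sums in the libraries in which Aldh1a2 was high. Their 7 genes summed to 784 CPM in control replicate 2 and to 493 and 770 CPM in the DM+SGLT2i group, compared with 185 to 288 CPM in the other 4 libraries. Col1a1, the main chain of fibrillar collagen, was at 168 CPM in control replicate 2, 114 and 81.9 CPM in DM+SGLT2i, and 20.97 to 23.3 CPM elsewhere. Col1a2, Col3a1 and Pdgfrb were highest in the same libraries. Dcn was not: it was at 51.5 CPM in DM-22 replicate 1 and 39.9 CPM in DM+SGLT2i replicate 2. Acta2 was at 63.8 and 67.2 CPM in these libraries. Pdgfra was at 38.0 CPM in control replicate 9 and 38.9 CPM in DM+SGLT2i replicate 2. Of 5 mesothelial markers 3 were listed, and their sum ran from 1.90 to 56.1 CPM, highest in DM+SGLT2i replicate 1 and next in control replicate 2 (34.9 CPM). The part of these cells in the level of Aldh1a2 was not tested.

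Aldh1a3 (ENSMUSG00000015134, chromosome 7, positions 66390890 to 66427517, minus strand), the retinal dehydrogenase of sensory and ureteric epithelia, was the least abundant of the family. It was measured at 1.70, 0.947 and 1.45 CPM in control replicates 2, 8 and 9, at 1.30 and 0.832 CPM in DM-22, and at 2.05 and 1.26 CPM in DM+SGLT2i. The groups overlapped in every comparison. The log2 differences were -0.25 for DM-22 against C, 0.21 for DM+SGLT2i against C and 0.46 for DM+SGLT2i against DM-22, with standard errors of 0.33 to 0.36 and limma adjusted p-values of 0.861, 0.9997 and 0.881. Without control replicate 2 the differences from C were -0.12 in DM-22 and 0.34 in DM+SGLT2i (limma adjusted p = 0.837 and 0.612). The urothelial gene Upk1a was at 20.7 CPM in control replicate 2 and 37.8 CPM in DM+SGLT2i replicate 1, the 2 libraries with the highest Aldh1a3, and at 0.879 to 10.3 CPM elsewhere. Upk1b, Upk2, Upk3a, Krt5 and Krt20 were highest in the same 2 libraries. The full list of 9 papilla and urothelium markers instead had its highest sum in DM-22 replicate 1. The sum was 487 CPM there, 308 CPM in control replicate 2 and 273 CPM in DM+SGLT2i replicate 1. Slc14a2, Aqp4 and Akr1b3 peaked in DM-22 replicate 1. The part of urothelium or papilla in the level of Aldh1a3 was not tested.

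**Figure D2:**
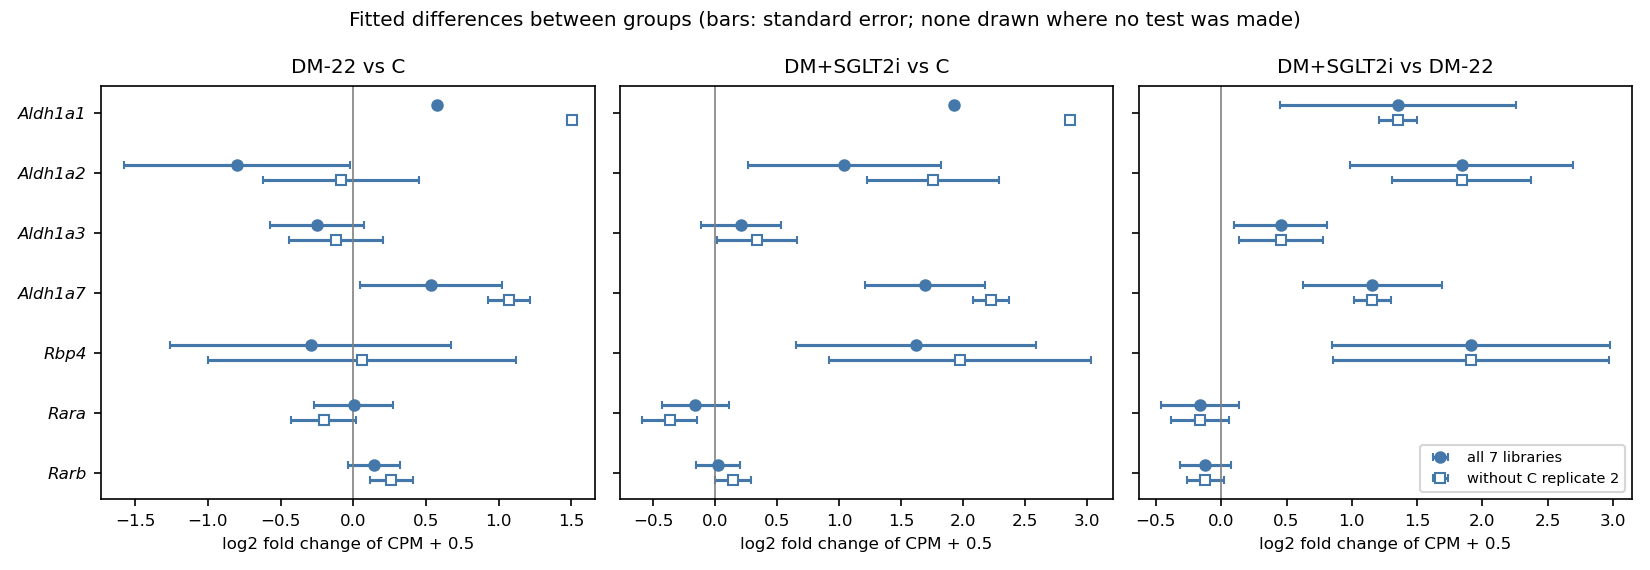
Log2 fold changes of CPM + 0.5 for the 7 genes in the 3 comparisons, with standard errors as bars; circles are fits with all 7 libraries and squares fits without control replicate 2, and no bars are drawn for Aldh1a1 against C, which was not tested. Leaving out control replicate 2 moved Aldh1a1 against C from 0.57 to 1.51 in DM-22 and from 1.93 to 2.86 in DM+SGLT2i. Rara and Rarb lay between -0.37 and 0.26 in all panels.

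Counted together, 3 of the 7 members (Aldh1a1, Aldh1a2 and Aldh1a7) had both DM+SGLT2i libraries above both DM-22 libraries, and 0 had both below. Over all genes tested, 21.4% lay above in this way and 20% lay below. At an unadjusted p under 0.05 with all 7 libraries, 0 members were higher and 0 lower in this comparison (2.25% and 1.66% of all genes tested). With control replicate 2 left out, 3 were higher (Aldh1a1, Aldh1a2 and Aldh1a7) and 0 lower, against 6.86% and 3.89% of all genes tested. Against C without that library, 1 of the 6 members tested was higher in DM-22 (Aldh1a7) and 2 in DM+SGLT2i (Aldh1a2 and Aldh1a7), and 0 were lower. Over all genes tested, 10.4% were higher and 14.8% lower in the former comparison, and 8.73% and 9.14% in the latter. The members' median log2 difference between DM+SGLT2i and DM-22 was 1.16, against 0.00 for all genes tested. The comparisons with C and between the diabetic groups share libraries, so their values are given side by side. Those with C without control replicate 2 use the controls by which Aldh1a1 was chosen. For Aldh1a7 they are not independent of that choice.

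**Figure D3:**
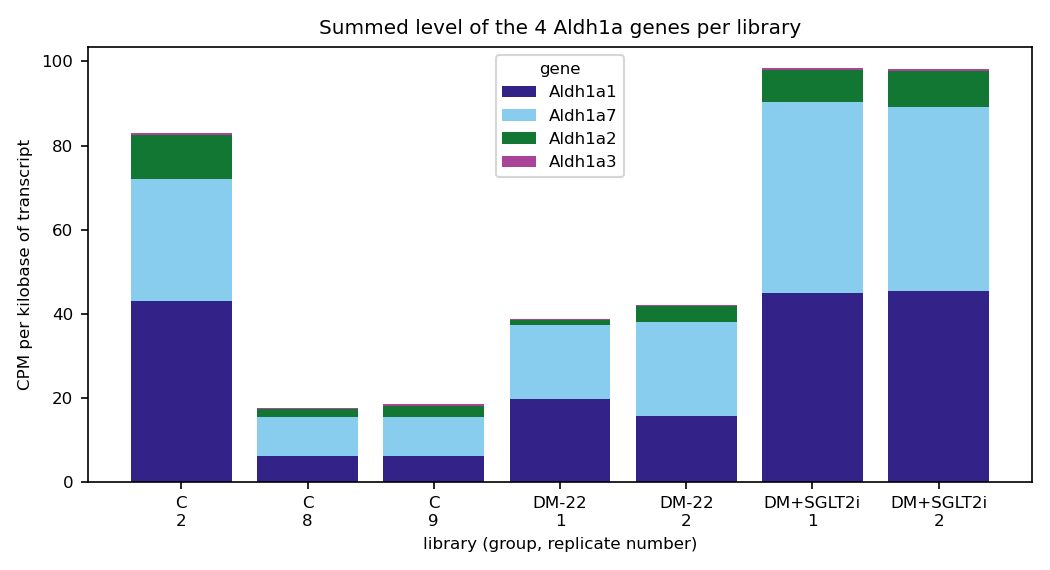
Summed level of the 4 Aldh1a genes in each library, in CPM per kilobase of the main transcript (linear axis from 0), stacked by gene. The sum was 17.5 and 18.4 in control replicates 8 and 9, 38.7 and 42.1 in DM-22, 98.5 and 98.2 in DM+SGLT2i and 83.1 in control replicate 2.

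To compare genes with each other, levels were divided by the length of each gene's principal transcript. Averaged over the 7 libraries, Aldh1a1 was at 25.8 and Aldh1a7 at 25.3 CPM per kilobase, followed by Rara at 8.38, Aldh1a2 at 5.17, Rarb at 4.60, Rbp4 at 2.43 and Aldh1a3 at 0.396. The order of Aldh1a1 and Aldh1a7 depended on the length used: by the union of all annotated exons Aldh1a1 was at 10.7 and Aldh1a7 at 25.3. Neighbours in this order overlapped between libraries; Aldh1a1 ran from 6.00 to 45.4 and Aldh1a7 from 9.30 to 45.6 CPM per kilobase. Of the summed per-kilobase level of the 4 Aldh1a genes, Aldh1a1 made up 32.8% to 51.8% and Aldh1a7 34.8% to 53.6%. Aldh1a2 made up 2.73% to 14.3% and Aldh1a3 0.374% to 2.30%. The ratio of Aldh1a1 to Aldh1a7 in CPM was 0.634 and 0.643 in control replicates 8 and 9, 1.11 and 0.692 in DM-22, 0.979 and 1.03 in DM+SGLT2i, and 1.48 in control replicate 2. It differed between the 2 DM-22 libraries by more than between the 2 DM+SGLT2i libraries.

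Rbp4 (ENSMUSG00000024990, chromosome 19, positions 38116629 to 38125281, minus strand) encodes the plasma carrier of retinol, which is made mainly by liver and adipose tissue. It was at 1.61, 0.400 and 0.641 CPM in control replicates 2, 8 and 9. DM-22 replicate 1 was at 1.46 CPM, and DM-22 replicate 2 held only 3 reads (0.0694 CPM). DM+SGLT2i replicate 1 was at 10.9 CPM and DM+SGLT2i replicate 2 at 0.885 CPM, so a single library stood above all others and the groups overlapped. The log2 difference was 1.62 (standard error 0.97, limma adjusted p = 0.9997) for DM+SGLT2i against C and 1.91 (standard error 1.06, limma adjusted p = 0.881) against DM-22. Without DM+SGLT2i replicate 1 these differences were 0.10 and 0.39. For DM-22 against C it was -0.29 (standard error 0.97, limma adjusted p = 0.954), and it was 0.60 without DM-22 replicate 2. Leaving out control replicate 2 gave differences from C of 0.06 in DM-22 and 1.97 in DM+SGLT2i (limma adjusted p = 0.977 and 0.380). These fitted values of a gene near the detection floor depend on the pseudocount.

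The same library carried markers of fat. The adipose markers summed to 1090 CPM in DM+SGLT2i replicate 1 and to between 34.1 and 79.8 CPM in the other 6 libraries, with 6 of 7 markers listed and Ucp1 not among the listed genes. Adipoq, the adipocyte hormone adiponectin, was at 76.0 CPM there and at no more than 3.31 CPM elsewhere. Summed liver markers were not highest there (542 CPM, within the 277 to 1206 CPM of the other libraries). The part of adipose tissue in the level of Rbp4 was not tested.

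Rara (ENSMUSG00000037992, chromosome 11, positions 98927818 to 98974942, plus strand) encodes the most widely expressed retinoic acid receptor. It was measured at 21.5, 33.2 and 33.4 CPM in control replicates 2, 8 and 9, at 23.4 and 35.4 CPM in DM-22, and at 28.7 and 23.0 CPM in DM+SGLT2i. The groups overlapped, and control replicate 2 was the lowest library. The log2 differences were 0.00 for DM-22 against C (95% interval from -0.65 to 0.65), -0.16 for DM+SGLT2i against C (from -0.81 to 0.49) and -0.16 for DM+SGLT2i against DM-22 (from -0.87 to 0.55), with limma adjusted p-values of 0.998, 0.9997 and 0.932. When control replicate 2 was left out, the differences from C were -0.20 in DM-22 and -0.37 in DM+SGLT2i (limma adjusted p = 0.585 and 0.423). The sign for DM-22 against C turned with the scaling of the libraries: the difference was -0.09 with CPM without TMM factors.

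Rarb, whose promoter holds the direct repeat shown above, varied least of the 7. It was at 16.3, 11.9 and 13.4 CPM in control replicates 2, 8 and 9, at 16.1 and 14.5 CPM in DM-22 and at 13.3 and 14.7 CPM in DM+SGLT2i, a 1.37-fold range between the highest and lowest library. The log2 differences were 0.14 for DM-22 against C (95% interval from -0.28 to 0.57), 0.02 for DM+SGLT2i against C (from -0.40 to 0.45) and -0.12 for DM+SGLT2i against DM-22 (from -0.59 to 0.35). The limma adjusted p-values were 0.858, 0.9997 and 0.924. Leaving out control replicate 2 gave differences from C of 0.26 in DM-22 and 0.14 in DM+SGLT2i (limma adjusted p = 0.304 and 0.636). Exons of Rarb overlap exons of Top2b on the opposite strand. The kit kept strand, but whether the counting used it is not given in the sources used here, so some reads assigned to Rarb may be from Top2b.

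Across the 7 libraries, log2 levels of Aldh1a1 correlated with those of Aldh1a7 at r = 0.962, with Aldh1a2 at 0.729 and with Rara at -0.735. These coefficients describe 7 points that share groups and tissue content, and control replicates 8 and 9 lie together at one end of the Aldh1a1 scale. Among all other genes tested, the 5 that correlated best with Aldh1a1 were Stat3 (r = 0.996), a transcription factor activated by cytokines, Sorbs2 (0.994), an actin-associated adaptor, Lypd6 (0.993), a membrane-anchored protein, Cbr3 (0.988), a carbonyl reductase, and Ppa1 (0.983), a pyrophosphatase. In all, 69 of 13975 genes had r above 0.95 with Aldh1a1. Stat3 was at 112, 73.1 and 72.5 CPM in control replicates 2, 8 and 9, at 90.6 and 89.1 CPM in DM-22 and at 112 and 109 CPM in DM+SGLT2i. Cbr3 was at 12.6, 1.26 and 1.67 CPM in control replicates 2, 8 and 9, at 6.86 and 3.79 CPM in DM-22 and at 16.1 and 11.96 CPM in DM+SGLT2i. The range of Cbr3 was thus wide, like that of Aldh1a1, whereas that of Stat3 was narrower.

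**Figure D4:**
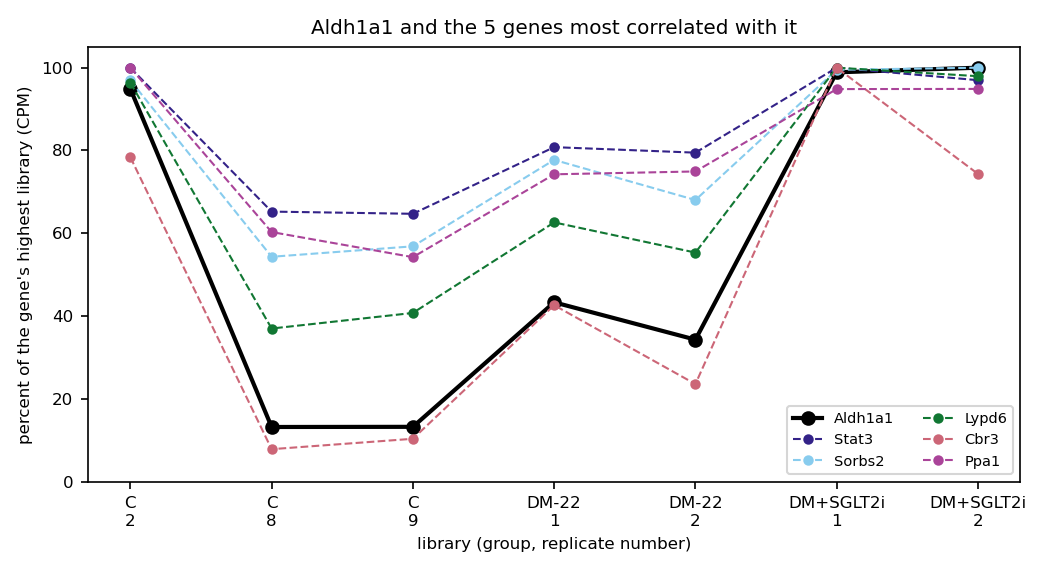
Aldh1a1 and the 5 genes with the highest correlation to it, each as a percentage of its own highest library in CPM, across the 7 libraries. All 6 genes were lowest in control replicates 8 and 9, intermediate in DM-22 and highest in control replicate 2 or DM+SGLT2i; Aldh1a1 and Cbr3 fell furthest.

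For Aldh1a7 the most correlated genes were Vnn1 (r = 0.991), which encodes a pantetheinase of the proximal tubule, Zmat3 (0.980), an RNA-binding p53 target, and Dpy19l1 (0.976). For Aldh1a2 they included Cacna1g (0.994), a calcium channel, and Cd37 (0.978), a leukocyte tetraspanin. For Aldh1a3 they were Amotl1 (0.987), Mtus2 (0.973) and Nlgn2 (0.971), and for Rbp4 they were Pcp4l1 (0.987), Plch2 (0.985) and Ntrk2 (0.9751). Rara was matched by Zfp697 (0.980), Phka2 (0.978) and Gm8765 (0.973). Rarb was matched by Icam2 (0.987), an endothelial adhesion molecule, Prkx (0.987) and Ctla2a (0.977). The number of genes with r above 0.95 was 21 for Aldh1a7, 23 for Aldh1a2, 16 for Aldh1a3, 20 for Rbp4, 40 for Rara and 45 for Rarb.

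The rest of the retinoid pathway was described from lists of 67 other genes, of which 61 were listed and 52 passed the filter. At the adjusted threshold 0 of the 52 were called in any of the 3 comparisons, with or without control replicate 2. At an unadjusted limma p under 0.05 with all controls, 2 were higher and 2 lower in DM-22 against C (1.19% and 3.28% of all genes tested), 0 and 0 in DM+SGLT2i against C (0.665% and 0.415%), and 2 and 2 in DM+SGLT2i against DM-22 (2.25% and 1.66%). Without control replicate 2, 9 were higher and 5 lower in DM-22 against C (10.4% and 14.8% of all genes tested), 8 and 1 in DM+SGLT2i against C (8.73% and 9.14%), and 4 and 4 in DM+SGLT2i against DM-22 (6.86% and 3.89%). With all controls, the genes counted in DM-22 against C were Dgat1 and Rxrb (log2 differences of 0.33 and 0.32) and Rai14 and Meis1 (-0.61 and -0.64), and those in DM+SGLT2i against DM-22 were Stra6 and Rai14 (0.73 and 0.53) and Rdh14 and Rxrb (-0.46 and -0.46). Except for Dgat1 these genes are named after their values were seen. Rxrb, which encodes a partner of both retinoic acid receptors, was at 45.2 to 47.9 CPM in C, at 57.1 and 60.6 CPM in DM-22 and at 41.2 and 44.2 CPM in DM+SGLT2i. Stra6, the receptor through which cells take retinol from the Rbp4 protein, was at 5.49 to 7.45 CPM in C. It was at 4.68 and 5.18 CPM in DM-22 and at 10.3 and 6.94 CPM in DM+SGLT2i. DM+SGLT2i replicate 2 thus lay within the range of C, and only DM+SGLT2i replicate 1 lay above it. The median log2 difference of the 52 genes with all controls was 0.09 in DM-22 against C, 0.07 in DM+SGLT2i against C and 0.04 in DM+SGLT2i against DM-22, against 0.00, -0.01 and 0.00 for all genes tested. With control replicate 2 left out, the first 2 were 0.10 and 0.12.

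**Figure D5:**
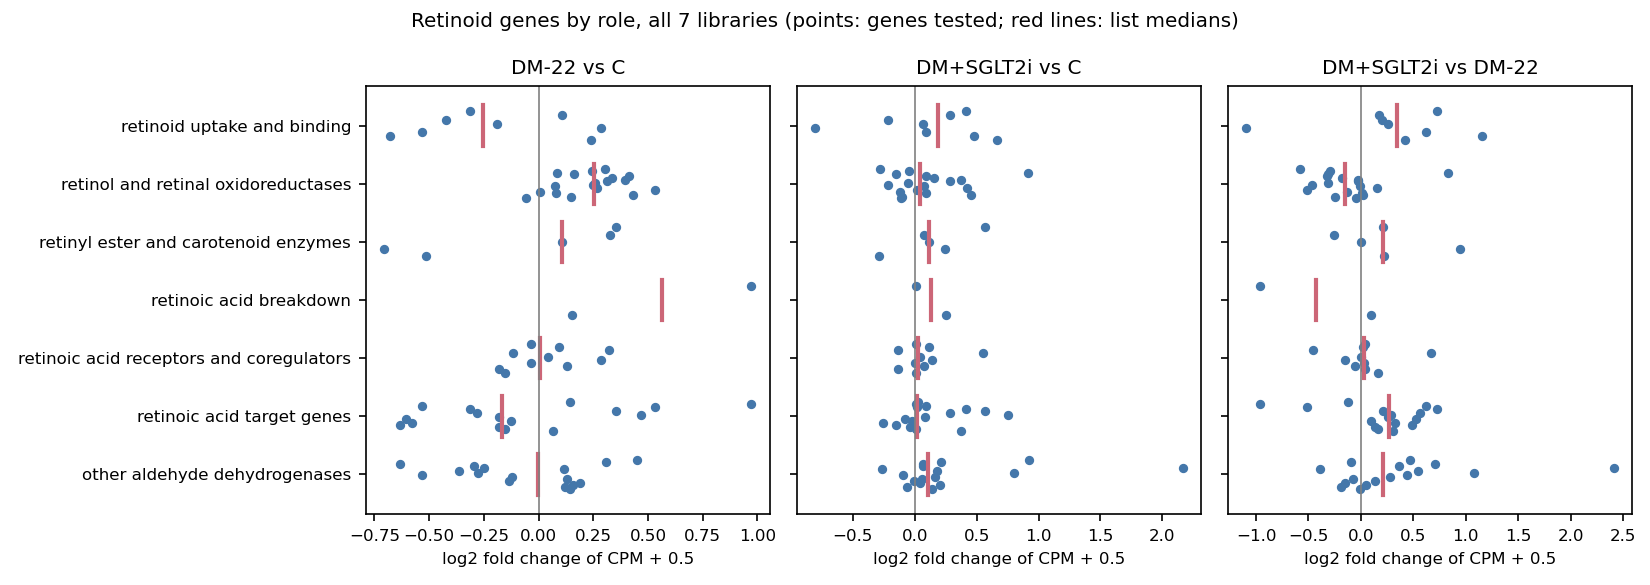
Log2 fold changes of CPM + 0.5 for the tested genes of 7 retinoid and aldehyde dehydrogenase lists in the 3 comparisons, all 7 libraries; each point is a gene and each red line the median of its list. The list of retinol and retinal oxidoreductases had 17 of 18 genes above 0 in DM-22 against C, and the list of retinoic acid breakdown holds only 2 genes.

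Among genes of retinoid uptake and binding, 8 of 11 were tested, with a median log2 difference of -0.25 for DM-22 against C, 0.19 for DM+SGLT2i against C and 0.34 for DM+SGLT2i against DM-22. The sign of the first turned without control replicate 2, where the median was 0.09, and that of the second was then 0.37. The most abundant were Lrp2 (megalin), the endocytic receptor that recovers the Rbp4 protein from the filtrate, and Cubn (cubilin), its partner. Lrp2 was at 1258, 3597 and 2293 CPM in control replicates 2, 8 and 9, at 1437 and 1838 CPM in DM-22 and at 1950 and 1799 CPM in DM+SGLT2i. Its log2 difference was -0.42 for DM-22 against C (standard error 0.46, limma adjusted p = 0.834). Both DM-22 libraries lay below control replicates 8 and 9 and above control replicate 2, without which the difference was -0.82 (limma adjusted p = 0.196). That of Cubn was -0.19 (adjusted p = 0.889), and -0.47 without that library (adjusted p = 0.266).

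Of the genes listed as retinol and retinal oxidoreductases, a class that forms the retinal that the Aldh1a enzymes use or reduces it again, 18 of 22 were tested. Of these, 17 were above 0 in DM-22 against C, with a median of 0.25, where 50.7% of all genes tested were above 0, but 0 passed at an unadjusted p under 0.05. When control replicate 2 was left out, 15 were above 0 with a median of 0.26, and 3 (Akr1b3, Dhrs3 and Rdh11, named after their values were seen) were higher at an unadjusted p under 0.05, against 10.4% of all genes tested. In DM+SGLT2i against C, 10 of 18 were above 0 (median 0.05), and 9 without that library (median 0.09). The most abundant genes of this list were Akr1c21, at 1053 to 1519 CPM over the 7 libraries, and Adh1, the class I alcohol dehydrogenase, at 305 to 721 CPM. Akr1c21 was the 1 gene below 0 in DM-22 against C, with a log2 difference of -0.06 (limma adjusted p = 0.969). That of Adh1 was 0.30 (limma adjusted p = 0.830), and 0.14 without control replicate 2 (limma adjusted p = 0.805).

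Enzymes of retinyl esters and carotenoids were led by Retsat, which saturates retinol, and Dgat1, which can esterify it. Retsat was at 702, 363 and 332 CPM in control replicates 2, 8 and 9 and at 405 to 552 CPM in the diabetic libraries, so that control replicate 2 was again apart. Over the 5 genes tested of this list the median was 0.11 in DM-22 and 0.11 in DM+SGLT2i against C, and -0.07 and 0.15 when control replicate 2 was left out, so the sign of the former depended on that library. Dgat1 was at 27.9 to 33.3 CPM in C and at 38.1 and 36.8 CPM in DM-22, without overlap (10.8% of all genes tested were higher in this way), with a log2 difference of 0.33 (standard error 0.13, limma adjusted p = 0.804) that was 0.41 without control replicate 2 (adjusted p = 0.109). Retinoic acid breakdown was represented by Cyp2s1 and Cyp26b1, with a median of 0.56 in DM-22 and 0.13 in DM+SGLT2i against C, and of 0.89 and 0.46 with control replicate 2 left out. Cyp26b1 was at 13.1 to 26.4 CPM in C, at 56.1 and 24.5 CPM in DM-22 and at 25.7 and 13.7 CPM in DM+SGLT2i. Only DM-22 replicate 1 lay above the range of C, and DM-22 replicate 2 lay within it. The log2 difference for DM-22 against C was 0.97 (standard error 0.46, limma adjusted p = 0.804). Without control replicate 2 it was 1.22 (limma adjusted p = 0.182). Cyp2s1 was at 18.4 to 44.7 CPM in C and 23.3 to 33.7 CPM in the diabetic libraries.

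The list of receptors and coregulators held the retinoic acid receptor gene Rarg, the retinoid X receptors and coregulators. Over its 10 genes the medians were 0.01 in DM-22 against C, 0.03 in DM+SGLT2i against C and 0.03 in DM+SGLT2i against DM-22. The most abundant were the corepressor Ncor1, at 127 to 252 CPM, and Rxra, at 123 to 259 CPM. With control replicate 2 left out, the medians against C were -0.12 in DM-22 and -0.15 in DM+SGLT2i. The list of 22 retinoic acid target genes includes Rarb and Tgm2 (transglutaminase 2, 187 to 397 CPM); 16 were tested, and none passed the adjusted threshold. Their medians with and without control replicate 2 were -0.17 and -0.13 in DM-22 against C and 0.02 and 0.13 in DM+SGLT2i against C.

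The other aldehyde dehydrogenases showed a median of -0.00106 over 16 genes in DM-22 against C, 0.10 in DM+SGLT2i against C and 0.21 in DM+SGLT2i against DM-22. When control replicate 2 was left out, the first was -0.12 and the second 0.01. The mitochondrial enzymes Aldh6a1 and Aldh2 were the most abundant, at 733 to 1468 CPM and 506 to 1007 CPM, and their log2 differences lay between -0.29 and 0.36 in the 3 comparisons with all controls. Aldh1b1, a mitochondrial relative that can also oxidize retinal, was singled out after its values were seen. It was at 13.8, 2.55 and 2.12 CPM in control replicates 2, 8 and 9, at 6.41 and 5.87 CPM in DM-22 and at 9.02 and 8.36 CPM in DM+SGLT2i. As for Aldh1a1, control replicates 8 and 9 were lowest and DM-22 intermediate, but control replicate 2 exceeded both DM+SGLT2i libraries. Its log2 difference for DM+SGLT2i against C was 0.92 (standard error 0.70, limma adjusted p = 0.9997), and 1.70 (adjusted p = 0.0531) without control replicate 2, just outside the threshold.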

How the data were processed

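Mouse kidney polyA RNA was sequenced in 7 directional libraries. Submitters' processing notes name bcl2fastq, FastQC, Trim Galore, STAR and mm10. Versions, and how genes were counted, are not given in the sources used here. For 17537 genes, the authors deposited log2-scale expression: CPM normalized by TMM, plus a constant averaging 2 reads. The design had assumed linear CPM, so each value was exponentiated (base 2) and the lowest value of the table (-4.66 before exponentiation) was subtracted. Recovered reads were whole (within 0.1) for 100% of values.

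The 3 groups were fitted together with limma 3.58.1 (R 4.3.3, trend) on log2(CPM + 0.5) for the 13976 genes reaching 1 CPM in 2 or more libraries. Two-sided p-values underwent Benjamini-Hochberg adjustment, and 0.05 was the threshold. Figures and counts used Python 3.11.15, numpy 2.4.6, pandas 2.3.3, scipy 1.17.1 and matplotlib 3.10.9. Named genes were the 7 members, the 2 most abundant genes and any called gene of each pathway list, and the genes most correlated with each member; some that the rule names are not reported here. The members and lists were chosen with earlier results of these data known. Replicate pairs of each group differed by more than sampling noise (chi-square per degree of freedom 39.3 or more). The fit was tested on simulated data for DM-22 against C, with 200 of 13976 genes changed. At the adjusted threshold it recovered 0% of genes changed by 1 log2 unit, 68% at 2 and 97% at 4. A gene that does not pass may therefore still differ by 1 log2 unit. Depth was 46456125 to 56541594 reads per library. Positions and lengths are from GENCODE M21 (GRCm38), and promoters from RefSeq (GRCm38.p6). Alternatives were other pseudocounts, no filter, CPM without TMM factors, median-of-ratios factors, voom on recovered reads, only the compared groups, a replicate block, and each library left out. Fold-change lists of the study were not used as values.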

Additional observations from a re-analysis of the deposited data

How the results depend on the processing

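Every comparison gave 0 genes at the adjusted threshold with all 7 libraries, whichever pseudocount, filter, scaling, voom weights or choice of groups was used. At an unadjusted p under 0.05, limma gave 625 genes for DM-22 against C, 151 for DM+SGLT2i against C and 547 for DM+SGLT2i against DM-22, and voom gave 517, 148 and 533. Leaving out 1 library gave 0 to 2 called genes for DM-22 against C, 0 to 17 for DM+SGLT2i against C and 0 for DM+SGLT2i against DM-22. The 2 and the 17 came without control replicate 2, and Aldh1a7 was 1 of the 17 (2.23). The controls left in that fit are those by which Aldh1a1 was chosen. Without control replicate 2 and DM+SGLT2i replicate 1 together, an alternative chosen after seeing the data, 0 were called in each comparison.

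Sign changes concerned small or scattered differences, and the cause was not tested. For Rara in DM-22 against C the difference was -0.0855 with CPM without TMM factors, -0.0122 with median-of-ratios factors, -0.00259 with voom and -0.20 without control replicate 2 and DM+SGLT2i replicate 1, and leaving out 1 library gave -0.29 to 0.29. Rbp4 in DM-22 against C was 0.06 without control replicate 2 and DM+SGLT2i replicate 1, and -1.19 to 0.60 without 1 library. Leaving out 1 library gave -1.65 to 0.0497 for Aldh1a2 in DM-22 against C, -0.0788 to 0.14 for Rarb (0.210 without control replicate 2 and DM+SGLT2i replicate 1) and -0.0605 to 0.47 for Aldh1a3 in DM+SGLT2i against C, and -0.46 to 0.13 for Rara in DM+SGLT2i against DM-22. For Aldh1a1 the same range was 0.11 to 1.51, 1.46 to 2.86 and 1.19 to 1.52 in the 3 comparisons. CPM without TMM factors shifted the median of all genes by 0.10 in DM+SGLT2i against DM-22.

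DM-22 and DM+SGLT2i share replicate numbers 1 and 2, but deviations of same-numbered samples did not correlate (r = -0.0412), so the numbers were not taken as pairs. A replicate block gave 0 called genes and 696 at an unadjusted p under 0.05. Depth limited Rbp4 in DM-22 replicate 2, at 3 reads.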
